A study of Mus musculus with 29 samples.

Results

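The fibrillar collagens were followed in RNA from the aortic arch as 8 listed genes, Col1a1, Col1a2, Col3a1, Col5a1, Col5a2, Col5a3, Col11a1 and Col27a1, among the 56748 genes of the counts table. They were chosen by name, and each symbol was matched to its Ensembl identifier. The 28 samples used came from 1 mouse each and fell into 6 groups. Ercc1Δ/− mice, which carry a null and a truncated, partly active allele of the DNA repair gene Ercc1 in every tissue, were compared with their WT (Ercc1+/+) littermates. Both genotypes were F1 hybrids of C57BL6J and FVB and ate the same synthetic pellets. AL-fed WT mice gave 5 samples at 6 weeks and 4 at 22 weeks, and WT mice on dietary restriction (DR, with food reduced in steps to 30% below AL) gave 5 samples at 22 weeks. Ercc1Δ/− mice gave 5, 4 and 5 samples in the same order. Each group held both sexes, with 1 female among the 4 AL-fed WT mice of 22 weeks. One further AL-fed WT sample of 22 weeks, sample 003, was left out. It held 400410 counts on genes, and the others held 921167 to 9616382. The comparison of ages in WT mice shows normal maturation, and the other comparisons ask how genotype and diet add to it.

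Fibrillar collagens form the banded fibrils that carry tensile load in the arterial wall. Their chains fold into triple helices inside the cell, are secreted as procollagens, lose their end propeptides outside and assemble into fibrils that lysyl oxidases cross-link. Types I and III make up the bulk of arterial fibrils, type V is incorporated in small amounts and limits fibril diameter, and types XI and XXVII are best known from cartilage. In arteries these genes are transcribed most strongly while the wall is growing, by smooth muscle cells of the media and fibroblasts of the adventitia.

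Col1a1 and Col1a2 encode the chains of type I collagen and lie on chromosome 11 from 94827050 to 94843868 and on chromosome 6 from 4504814 to 4541555 (GRCm39, plus strand for both). Col3a1, the only chain of type III collagen and the gene mutated in vascular Ehlers-Danlos syndrome, lies on chromosome 1 from 45350698 to 45395840. Its neighbour Col5a2 follows after 16.7 kb on the opposite strand, from 45412554 to 45542442. The other type V chains are Col5a1 on chromosome 2 from 27776397 to 27929526 and Col5a3 on chromosome 9 from 20681337 to 20726418. Col11a1 lies on chromosome 3 from 113824134 to 114014367 and Col27a1 on chromosome 4 from 63132241 to 63253228. Non-coding genes of the opposite strand overlap exons of Col1a2 (Gm66266, 1308 exonic bases), Col3a1 (Gm71046, 111), Col5a1 (2810430I11Rik, 99, and Gm13372, 113), Col11a1 (Gm65490, 407) and Col27a1 (Gm52743, 358). The library kit keeps the strand, but the strand setting of the counting is not given in the sources used here, so reads there may be shared.

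Because several members moved together, the 250 bases before the transcription start were taken from RefSeq promoter entries (GRCm38.p6), which matched 6 of the 8 genes, Col1a1 and Col5a2 not among them. The upstream stretches are shown for Col1a2 and Col3a1, which fell in most comparisons, and for Col27a1, which did not follow them. Capitals mark the CCAAT box, the TATAA element and the GC box GGGCGG, searched on both strands, with overlapping matches merged. All are on the plus strand, at chr6:4505368-4505617, chr1:45311288-45311537 and chr4:63215162-63215411.
Col1a2: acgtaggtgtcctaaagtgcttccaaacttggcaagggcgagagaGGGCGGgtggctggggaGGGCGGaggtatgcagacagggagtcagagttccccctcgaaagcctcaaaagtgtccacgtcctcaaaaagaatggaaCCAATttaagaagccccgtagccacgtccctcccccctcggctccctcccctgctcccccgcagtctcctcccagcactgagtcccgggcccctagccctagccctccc
Col3a1: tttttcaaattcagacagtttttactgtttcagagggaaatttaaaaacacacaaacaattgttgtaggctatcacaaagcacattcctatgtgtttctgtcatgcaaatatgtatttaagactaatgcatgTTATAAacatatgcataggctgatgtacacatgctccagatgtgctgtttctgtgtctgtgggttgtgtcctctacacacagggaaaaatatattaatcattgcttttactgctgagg
Col27a1: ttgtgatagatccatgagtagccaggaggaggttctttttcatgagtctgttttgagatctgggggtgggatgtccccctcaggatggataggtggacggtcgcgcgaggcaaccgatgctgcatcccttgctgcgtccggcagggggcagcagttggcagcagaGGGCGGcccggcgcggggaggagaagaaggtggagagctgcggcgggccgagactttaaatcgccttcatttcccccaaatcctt

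GGGCGG was present in 5 of the 6 matched genes, absent only from the Col3a1 window, and in 32.7% of the 32851 promoters in the same table. CCAAT was found in 3 of the 6 (Col1a2, Col5a3 and Col11a1) and in 33.8% of all promoters, and TATAA in Col3a1 alone and in 22.8% of all. Col1a2 and Col3a1, whose counts tracked each other closely, therefore shared none of these letters, and their windows differed in G and C content (62% and 35.2%). These matches describe the letters of the windows only.

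Per kilobase of merged exons, Col3a1 had the highest mean level over the 28 samples with 1773 normalized counts per kb, followed by Col1a1 with 1462 and Col1a2 with 1452. Normalized counts are counts scaled to a common library of 3683502. This order was that of the 6-week group means in both genotypes. Col3a1 came first in every 6-week mouse, but in WT replicates 011 and 019 Col1a2 lay above Col1a1. At 22 weeks Col1a2 had the highest group mean in WT mice on AL (1360 per kb, against 1342 for Col3a1 and 1280 for Col1a1), in WT mice on DR (1044 against 835 and 801) and in Ercc1Δ/− mice on DR (765 against 682 and 590). In AL-fed Ercc1Δ/− mice of 22 weeks Col3a1 (840) and Col1a2 (836) were level within their spread. The order among these 3 genes also depended on the length used, since Col1a1 came first per kilobase of gene span and Col1a2 per kilobase of its canonical transcript. Col5a1 (344 per kb), Col5a2 (224), Col27a1 (37.7), Col5a3 (11.2) and Col11a1 (0.243) followed in that order with each of the 3 lengths. Within each of the 28 samples these genes stood in the same order per kilobase of merged exons. Between different mice, the lowest Col5a1 sample (186 per kb) lay below the highest Col5a2 sample (376). Col5a2 (135 or more), Col27a1 (24.1 to 53.8) and Col5a3 (27 or less) overlapped little or not at all. The counts cover the whole gene body, so that reads of introns add to the levels of the long genes.

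The genes were tested when more than 10 of the 28 samples held more than 10 counts, which 12353 genes passed. Of the 8 members 7 passed. Col11a1 reached more than 10 counts in 1 sample and was at 0 in 7, with 81 counts in all 28 samples together. Its normalized counts ran from 0 to 8.56 at 6 weeks and from 0 to 7.47 at 22 weeks. The means at 6 weeks were 4.58 in WT and 5.46 in Ercc1Δ/− mice. At 22 weeks they were 1.12 (AL) and 1.6 (DR) in WT mice and 2.32 (AL) and 3.03 (DR) in Ercc1Δ/− mice. These counts are near the floor, and a change of Col11a1 was not tested. The 12353 tested genes also held 1 of the 3 fibrillar collagens outside the list, Col11a2, whereas Col2a1 and Col24a1, with 128 and 52 counts in all, did not pass. A gene was called when its p in edgeR's quasi-likelihood test, after Benjamini-Hochberg adjustment across all tested genes, did not exceed 0.05 and its change reached 1.2-fold, or for an interaction with any fold change. Exact permutation tests (two-sided, on normalized counts) stand beside it, unadjusted, with a smallest possible p of 0.0286 for 4 samples against 4 and 0.00794 for 4 or 5 against 5.

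Normalized counts of Ercc1 ran from 28.2 to 78.7 in the 14 Ercc1Δ/− samples and from 52.2 to 136 in the 14 WT samples, and the difference was called at both ages and on both diets. The 1 WT sample under 80, of 6 weeks, held 13 raw counts of Ercc1, and leaving it out changed no number of members called in its comparisons (3, 1, 2 and 5 members). Sex-linked genes matched the label in every sample. Smooth muscle markers (Myh11, Acta2, Tagln and 5 others) summed to 61679 to 158218 normalized counts per sample and fibroblast markers (Pdgfra, Dpt, Lum and 7 others) to 5617 to 12355. None of these markers was at 0 in a group. At 22 weeks on AL, library totals did not overlap between Ercc1Δ/− (1294980 to 3855444) and WT mice (3903589 to 9616382).

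**Figure D1:**
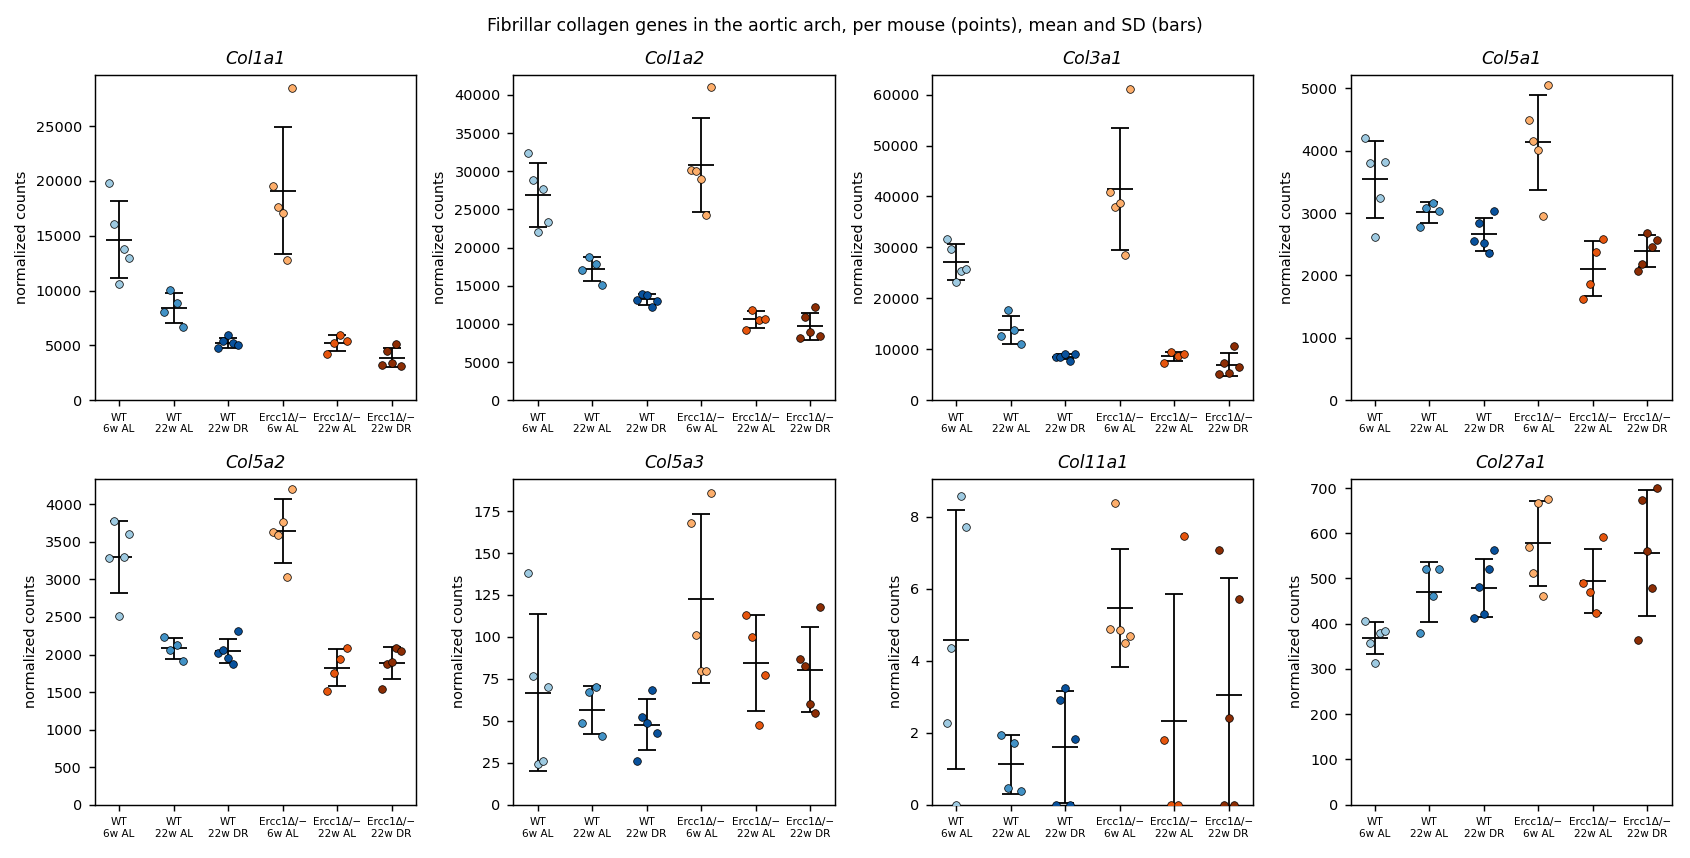
Normalized counts (y axis, linear from 0) of the 8 fibrillar collagen genes in the 6 groups (x axis), with 1 point per mouse, the mean as a horizontal tick and the SD as bars. Col1a1, Col1a2, Col3a1 and Col5a2 are lower in all 22-week groups than at 6 weeks in both genotypes, while Col27a1 has its lowest mean, 368, in WT mice of 6 weeks and Col11a1 stays under 10 normalized counts.

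Normal maturation of the WT aortic arch was read from the AL-fed WT mice of both ages. Col5a2, Col3a1 and Col1a2 fell between 6 and 22 weeks on AL, to 62.2%, 50.9% and 63.7% of their 6-week levels. These were 3 of the 7 members tested, where 0.235% of all tested genes were called, 0.138% lower and 0.0971% higher. Col1a1 was at 57.3%, Col5a1 at 83.4% and Col5a3 at 72.5% without passing the threshold, and Col27a1 was at 127%, also uncalled. Fewer collagen-producing cells and less collagen RNA per cell cannot be told apart in whole tissue, here or in the comparisons that follow.

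Col3a1 had 23153, 25301, 25665, 29621 and 31728 normalized counts in the 5 WT mice of 6 weeks and 11049, 12684, 13792 and 17643 in the 4 of 22 weeks. Every older mouse lay below every younger one. In edgeR the log2 fold change, here and below with its standard error, was -0.97 ± 0.17 with an adjusted p of 0.0126 (exact permutation p = 0.00794). Col5a2, a chain of type V collagen, had 2519, 3283, 3305, 3608 and 3774 normalized counts at 6 weeks and 1908, 2063, 2130 and 2239 at 22 weeks. Here too the ages did not overlap, and the log2 fold change of -0.68 ± 0.11 had the smallest p among the members (adjusted p = 0.00386), the fourth smallest of the 6202 genes with a negative change. Col1a2 had 22008, 23397, 27678, 28864 and 32429 normalized counts at 6 weeks and 15071, 17116, 17875 and 18748 at 22 weeks. It had a log2 fold change of -0.65 ± 0.13 (adjusted p in edgeR = 0.0268), again with no overlap.

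The values of Col1a1, the other type I chain, were 10598, 12941, 13801, 16032 and 19848 normalized counts at 6 weeks and 6710, 8021, 8848 and 10043 at 22 weeks. The groups did not overlap (exact permutation p = 0.0159), and the log2 fold change of -0.80 ± 0.18 had an adjusted p of 0.0733 in edgeR and of 0.00466 in DESeq2. Col5a1, the type V chain with the highest mean level per kilobase over the 28 samples, ranged from 2624 to 4205 at 6 weeks and from 2777 to 3161 at 22 weeks. These ranges overlapped, and its log2 fold change of -0.26 (95% interval -0.53 to 0.01) had an adjusted p of 0.587. Col27a1 ran the other way, from 313 to 405 normalized counts at 6 weeks and from 380 to 521 at 22 weeks, a log2 fold change of 0.34 ± 0.12 with an adjusted p of 0.363. Col5a3, with 24.1 to 138 normalized counts at 6 weeks and 40.6 to 70.1 at 22 weeks, varied too much between mice to place (log2 fold change -0.46, 95% interval -1.31 to 0.38). The number of members called was 1 without WT replicate 012 or 025 of 22 weeks, where Col1a2 and Col3a1 lost their calls. Col1a2 also lost its call without any 1 of 4 other WT samples (001, 009, 019 and 020) and without the sex term, and Col3a1 with no filter on low counts, whereas Col5a2 was called each time.

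In Ercc1Δ/− mice 5 members fell between 6 and 22 weeks on AL, Col3a1 to 21%, Col1a1 to 27.8%, Col1a2 to 34.7%, Col5a2 to 50.3% and Col5a1 to 51.4% of the 6-week level. These 5 of 7 stood against 4.69% of all tested genes called, 2.57% lower and 2.11% higher. Col27a1 was at 86.4% (adjusted p = 0.393) and Col5a3 at 75.1% (adjusted p = 0.675) in edgeR, and neither was called.

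Col3a1 had 28526, 37932, 38674, 40921 and 61120 normalized counts in the 5 Ercc1Δ/− mice of 6 weeks and 7360, 8614, 9073 and 9487 in the 4 of 22 weeks. Every old mouse lay far below every young one, and the log2 fold change was -2.25 ± 0.18 (edgeR adjusted p = 1.19e-07). For Col1a1 the 6-week values were 12750, 17067, 17649, 19572 and 28427 and the 22-week values 4221, 5250, 5425 and 5935. The ages were again separate, with a log2 fold change of -1.84 ± 0.19 (adjusted p = 4.72e-06). Col1a2 stood at 24207, 28975, 29997, 30165 and 41017 normalized counts in the young mice and 9245, 10570, 10678 and 11833 in the old ones, a log2 fold change of -1.53 ± 0.13 (adjusted p = 1.32e-07). Replicate 027 was the highest sample of 6 weeks for Col1a1, Col1a2, Col3a1, Col5a1 and Col5a2, and without it 5 members were still called.

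Both main type V genes fell by about the same amount in Ercc1Δ/− mice. Col5a1 had 2961, 4010, 4153, 4485 and 5049 normalized counts at 6 weeks and 1620, 1861, 2380 and 2581 at 22 weeks, a log2 fold change of -0.96 ± 0.13 (edgeR adjusted p = 5.99e-05). Col5a2 had 3028, 3596, 3635, 3766 and 4207 normalized counts at 6 weeks and 1512, 1753, 1945 and 2090 at 22 weeks, a log2 fold change of -0.99 ± 0.11 (adjusted p = 2.41e-06). Neither gene overlapped between the ages. The number of called members stayed at 5 under every alternative and with every single sample left out.

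The test of whether age changed the genes by different amounts in the genotypes called 2 members, Col3a1 and Col1a2, where 0.842% of all tested genes were called, 0.47% with the lower change in Ercc1Δ/− mice and 0.372% with the higher. For Col3a1 the difference between the genotypes' log2 changes was -1.28 ± 0.24 (edgeR adjusted p = 0.0109), which is a further 2.42-fold decline. For Col1a2 it was -0.88 ± 0.18 (adjusted p = 0.0166), a further 1.84-fold. Col1a1 had a difference of -1.04 ± 0.26, with an adjusted p of 0.0716 in edgeR, and Col5a1 one of -0.70 ± 0.18 with an adjusted p of 0.087, and both passed with DESeq2 (adjusted p = 0.00781 and 0.0255). Col5a1 also passed with no filter on low counts and with all 6 groups in the fit (adjusted p = 0.0473 and 0.033). For Col5a2 the interval of the difference ran from -0.62 to 0.00. Col27a1 had a difference of -0.55 ± 0.17 (adjusted p = 0.166) and Col5a3 one of 0.05 ± 0.56. The count was 1 without Ercc1Δ/− replicate 004 or WT replicate 018 of 22 weeks, in both cases through the loss of Col1a2, and 4 without Ercc1Δ/− replicate 023 of 6 weeks.

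**Figure D2:**
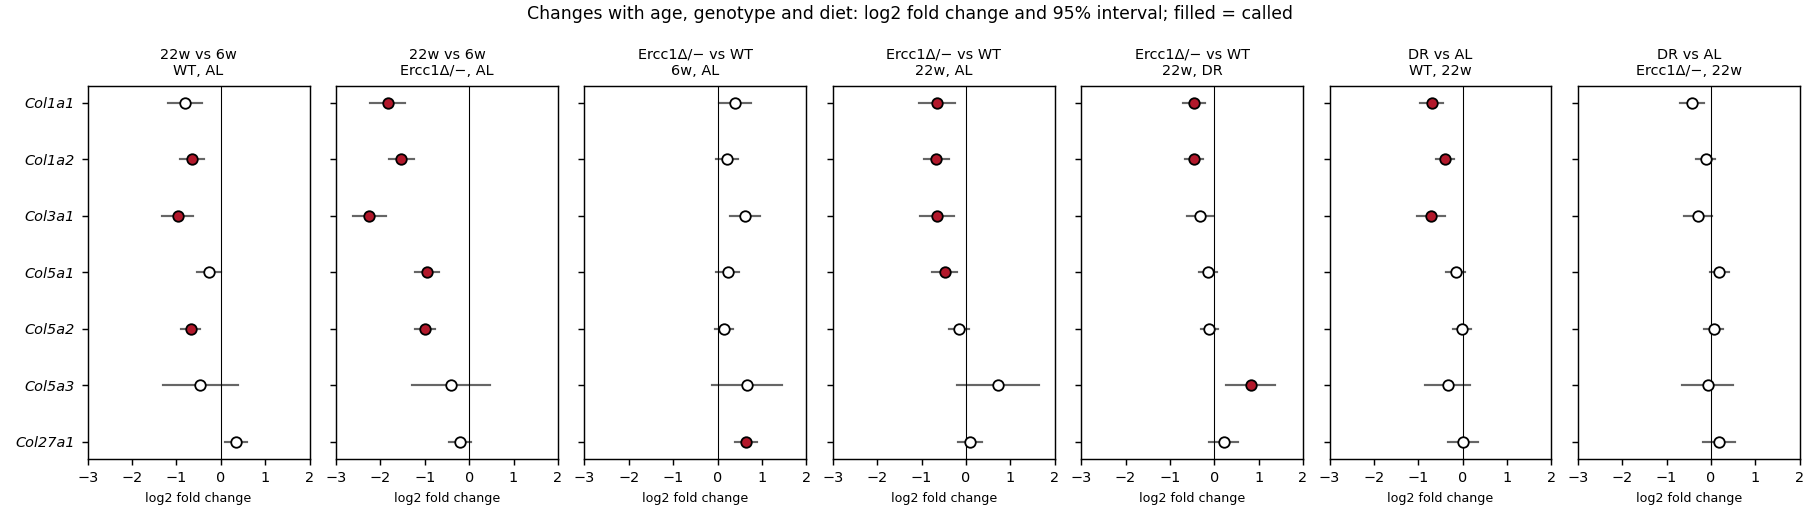
Log2 fold changes (x axis) of the 7 tested members (y axis) in 7 comparisons, with 95% intervals as lines and called genes filled. Col3a1 has an age change of -2.25 in Ercc1Δ/− and -0.97 in WT mice, and its genotype difference is 0.62 at 6 weeks, where it is not called, and -0.66 at 22 weeks on AL.

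At 6 weeks all 7 tested members had a positive log2 fold change in Ercc1Δ/− mice, from 0.15 to 0.67 with a median of 0.39. The median of all tested genes was 0.02, and 45.3% of them had a negative change. Several members are correlated across samples, so their shared sign is not a set of separate observations. Only Col27a1 was called, at 156% of the WT level, where 1.7% of all tested genes were called, 0.567% higher and 1.13% lower. Col27a1 had 313, 358, 380, 383 and 405 normalized counts in WT mice and 462, 513, 570, 666 and 676 in Ercc1Δ/− mice of 6 weeks, with no overlap. The log2 fold change was 0.64 ± 0.12 (edgeR adjusted p = 0.00582), the sixth smallest p among the 6762 genes with a positive change, and the call held under every alternative and with every single sample left out. The largest change was that of Col5a3, at 159% of WT with wide spread (0.67 ± 0.37, edgeR adjusted p = 0.495), and Col3a1 was at 154% (0.62 ± 0.16, adjusted p = 0.0512). In Col3a1 the genotypes overlapped at this age, and the gene passed with DESeq2 (adjusted p = 0.0131), with scaling by library size alone (0.0258), without the sex term (0.045) and without Ercc1Δ/− replicate 023. Col1a1 was at 131% (adjusted p = 0.329), Col5a1 at 117%, Col1a2 at 116% and Col5a2 at 111%, all with overlapping ranges.

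At 22 weeks on AL, Col1a2, Col3a1, Col5a1 and Col1a1 were lower in Ercc1Δ/− mice, at 63.1%, 63.4%, 72% and 63.8% of WT. These were 4 of the 7 tested, where 12% of all tested genes were called, 6.16% lower and 5.88% higher. For Col1a2 every Ercc1Δ/− mouse lay below every WT mouse, with a highest Ercc1Δ/− value of 11833 and a lowest WT value of 15071 normalized counts. The log2 fold change was -0.67 ± 0.14 (edgeR adjusted p = 0.00241, exact permutation p = 0.0286, the smallest possible). The groups were also separate for Col1a1 (5935 against 6710, log2 fold change -0.65 ± 0.19, adjusted p = 0.0323), Col3a1 (9487 against 11049, -0.66 ± 0.18, adjusted p = 0.0193) and Col5a1 (2581 against 2777, -0.47 ± 0.14, adjusted p = 0.0246). The gaps between the nearest mice of the genotypes were narrow in all 3. Col5a2 (-0.16, 95% interval -0.39 to 0.07) and Col27a1 (0.09, -0.18 to 0.36) were not called, and their groups overlapped.

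Col5a3 had 40.6, 48.5, 67.2 and 70.1 normalized counts in the WT mice and 47.4, 77.1, 99.8 and 113 in the Ercc1Δ/− mice of 22 weeks on AL, a log2 fold change of 0.72 with an interval of -0.21 to 1.65. Single libraries decided part of these calls. The number called was 1 without Ercc1Δ/− replicate 004 or WT replicate 018, 2 without Ercc1Δ/− replicate 013 and 2 with sample 003 added, when Col1a1 and Col5a1 lost their calls. Of the 8 fits with 1 sample left out, Col1a1 lost its call in 5, and Col3a1 and Col5a1 in 3 each. Col1a2 was called each time. Because the library totals of these groups were separate, every sample was thinned to 921167 counts as well, after which Col1a1 (-0.65 ± 0.20) had an adjusted p of 0.0559 and the other 3 calls held. The comparison shares its samples with those of age, so it is no independent support for them.

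Dietary restriction in WT mice was accompanied by a further decline of the type I and type III genes. At 22 weeks Col1a1, Col3a1 and Col1a2 were lower on DR than on AL, at 61.4%, 61.3% and 75.7%, and these 3 of 7 members stood against 1.28% of all tested genes called, 0.939% lower and 0.34% higher. Col1a1 had 4734, 5010, 5183, 5444 and 5932 normalized counts on DR, all below the AL values of 6710 and more (log2 fold change -0.70 ± 0.13, edgeR adjusted p = 0.0061, exact permutation p = 0.00794). For Col3a1 the DR values were 7720, 8460, 8500, 9099 and 9146, below the lowest AL value of 11049 (-0.71 ± 0.15, adjusted p = 0.0256). Col1a2 had 12217, 13033, 13081, 13790 and 13940 on DR, below 15071 on AL (-0.40 ± 0.10, adjusted p = 0.0453). The DR mice were close to each other in these genes, with SDs of 5.22% to 8.66% of the mean.

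The type V genes and Col27a1 were not called with DR in WT mice. Col5a1 had a log2 fold change of -0.16 (95% interval -0.37 to 0.05), Col5a2 of -0.02 (-0.22 to 0.18) and Col27a1 of 0.01 (-0.32 to 0.35), all with overlapping groups. For Col5a3 the log2 fold change was -0.33 (-0.84 to 0.17). These 3 calls depended on the samples and the fit. None remained with sample 003 added (adjusted p = 0.147 for Col1a1, 0.26 for Col1a2 and 0.0886 for Col3a1) or with all 6 groups in the fit (0.124, 0.203 and 0.097), in edgeR, while the log2 fold changes stayed between -0.31 and -0.69. Col3a1 was also lost with no filter on low counts. Only Col1a1 was called without the sex term, after thinning, and without WT replicate 017, 018, 020 or 021. DESeq2 called the same number of 3.

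In Ercc1Δ/− mice none of the 7 members was called with DR by edgeR or by DESeq2, and 1, Col1a1, had an unadjusted p under 0.05. Of all tested genes edgeR called 1.64%, 0.988% lower and 0.648% higher. Col1a1 had 3092, 3240, 3433, 4491 and 5121 normalized counts on DR and 4221 to 5935 on AL, with overlap, a log2 fold change of -0.43 ± 0.13 and an adjusted p of 0.0971 in edgeR. It passed without Ercc1Δ/− replicate 004 or 022 and after thinning (adjusted p = 0.0251). Col3a1 had 5215, 5410, 6531, 7269 and 10621 normalized counts on DR against 7360 to 9487 on AL (-0.30, 95% interval -0.62 to 0.02). The highest Col3a1 value on DR, that of replicate 022, exceeded every AL value, and without it Col3a1 was called as well. Col1a2 stood at -0.12 (-0.33 to 0.09), Col5a1 at 0.19 (-0.03 to 0.40), Col5a2 at 0.06 (-0.15 to 0.26), Col27a1 at 0.17 (-0.18 to 0.53) and Col5a3 at -0.07 (-0.65 to 0.50).

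The genotype by diet interaction asked whether the change with DR differed between genotypes. It called none of the 7 members with edgeR or with DESeq2, where edgeR called 0.0971% of all tested genes (0.0567% with a higher and 0.0405% with a lower change in Ercc1Δ/− mice). One, Col5a1, had an unadjusted p under 0.05 (difference 0.35 ± 0.14, adjusted p = 0.5). For Col1a1 the difference was 0.28 with an interval of -0.10 to 0.66, and for Col3a1 0.41 with an interval of -0.04 to 0.86. The other 4 differences were 0.28 for Col1a2 (-0.01 to 0.58), 0.08 for Col5a2 (-0.21 to 0.36), 0.26 for Col5a3 (-0.51 to 1.03) and 0.16 for Col27a1 (-0.33 to 0.64). The calls in WT mice and their lack in Ercc1Δ/− mice are therefore not shown to differ.

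Between the genotypes on DR, Col1a2 and Col1a1 were lower in Ercc1Δ/− mice (-0.46 ± 0.10, edgeR adjusted p = 0.00183, and -0.45 ± 0.12, adjusted p = 0.0156), 2 of 7 members where 13% of all tested genes were called, 7.03% lower and 5.97% higher. The DR values of Col1a2 were 8144, 8353, 8891, 10867 and 12155 in Ercc1Δ/− mice, all below the WT minimum of 12217. The highest Ercc1Δ/− value of Col1a1 on DR, 5121, lay within the WT range of 4734 to 5932. Col3a1 (-0.32 ± 0.14, adjusted p = 0.164), Col5a1 (-0.15 ± 0.10), Col5a2 (-0.11 ± 0.09) and Col27a1 (0.21 ± 0.15) were not called, with overlapping groups. Col5a3, a type V chain of low level here, was called higher, at 176% of WT. Its values were 26.1, 42.6, 48.8, 52.3 and 68.3 normalized counts in WT and 54.6, 60, 82.7, 87.1 and 118 in Ercc1Δ/− mice on DR, which overlapped (0.82 ± 0.26, adjusted p = 0.042). This call rested on 21 to 75 raw counts per sample and was lost under 5 of the 10 alternatives and without any of 7 single samples. With all 6 groups in the fit Col1a2 alone was called, as it was without Ercc1Δ/− replicate 006 or 029, and Col1a1 was also lost with sample 003 added (adjusted p = 0.101 in edgeR).

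When the DR-fed mice of 22 weeks were set against the 6-week mice, which differ from them in age and diet together, 5 members fell in each genotype. In WT mice Col3a1 was at 31.7%, Col1a1 at 36%, Col1a2 at 49.2%, Col5a2 at 62% and Col5a1 at 75% of the 6-week level, where 2.31% of all tested genes were called, 1.46% lower and 0.85% higher. In Ercc1Δ/− mice the same genes stood at 16.9%, 20.4%, 31.4%, 52.1% and 58.3%, where 9.75% of all were called, 5.52% lower and 4.23% higher. For Col3a1 this was a log2 fold change of -1.66 ± 0.18 in WT and of -2.57 ± 0.19 in Ercc1Δ/− mice (edgeR adjusted p = 5e-06 and 5.54e-10). Col5a1 in WT mice (-0.41 ± 0.11, edgeR adjusted p = 0.0395) had overlapping groups, and its call was lost under 5 alternatives and without any 1 of 8 single samples. Col27a1 in WT mice was at 129% without overlap (exact permutation p = 0.00794), with an adjusted p of 0.174, and in Ercc1Δ/− mice at 96.3%. Col5a3 was at 59.8% in WT and 65.1% in Ercc1Δ/− mice (edgeR adjusted p = 0.353 and 0.335). These comparisons share the 6-week mice with those of age on AL.

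As a share of all gene counts, the 8 genes made up 1.96% ± 0.293 (SD, n = 5) in WT mice of 6 weeks, 1.21% ± 0.153 (n = 4) at 22 weeks on AL and 0.853% ± 0.036 (n = 5) on DR. In Ercc1Δ/− mice they made up 2.69% ± 0.615 (n = 5), 0.816% ± 0.0753 (n = 4) and 0.711% ± 0.146 (n = 5). The highest share, 3.7%, was reached by replicate 027 of the young Ercc1Δ/− mice and the lowest, 0.557%, by replicate 006 of the Ercc1Δ/− mice on DR. Col1a1, Col1a2 and Col3a1 held most of it, 1.77% of the 1.96% in young WT mice. Relative to its 6-week WT mean, Col3a1 was at 153% ± 44.2 in young Ercc1Δ/− mice, 50.9% ± 10.3 and 31.7% ± 2.14 in WT mice of 22 weeks on AL and DR, and 31.9% ± 3.4 and 25.9% ± 8.07 in Ercc1Δ/− mice of 22 weeks on AL and DR. The ranges of the AL-fed Ercc1Δ/− mice (27.2% to 35%) and of the WT mice on DR (28.5% to 33.8%) overlapped.

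The proportions among the chains are given as a description without a test. Per Col1a2 count there were 0.54 ± 0.0518 Col1a1 counts in WT mice of 6 weeks, 0.486 ± 0.0388 at 22 weeks on AL and 0.398 ± 0.0286 on DR. The Ercc1Δ/− means were 0.609 ± 0.0637, 0.492 ± 0.0538 and 0.398 ± 0.0205. On DR no mouse of either genotype exceeded 0.43, and at 6 weeks none lay under 0.482. For Col5a1 the proportion ran the other way. There were 24.5 ± 3.07 Col5a1 counts per 100 Col1a1 counts in young WT mice, 36.6 ± 6.2 at 22 weeks on AL and 50.9 ± 7.05 on DR, and 22.2 ± 2.49, 40.4 ± 5.17 and 64.3 ± 16.2 in Ercc1Δ/− mice. Each 22-week group lay above the 6-week group of its genotype without overlap. Col3a1 per Col1a1 was highest in young Ercc1Δ/− mice (2.18 ± 0.0716, with 5 values from 2.09 to 2.27) and between 1.64 and 1.89 in the other groups' means. These ratios are of raw counts, and both counts of a ratio come from the same library.

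**Figure D3:**
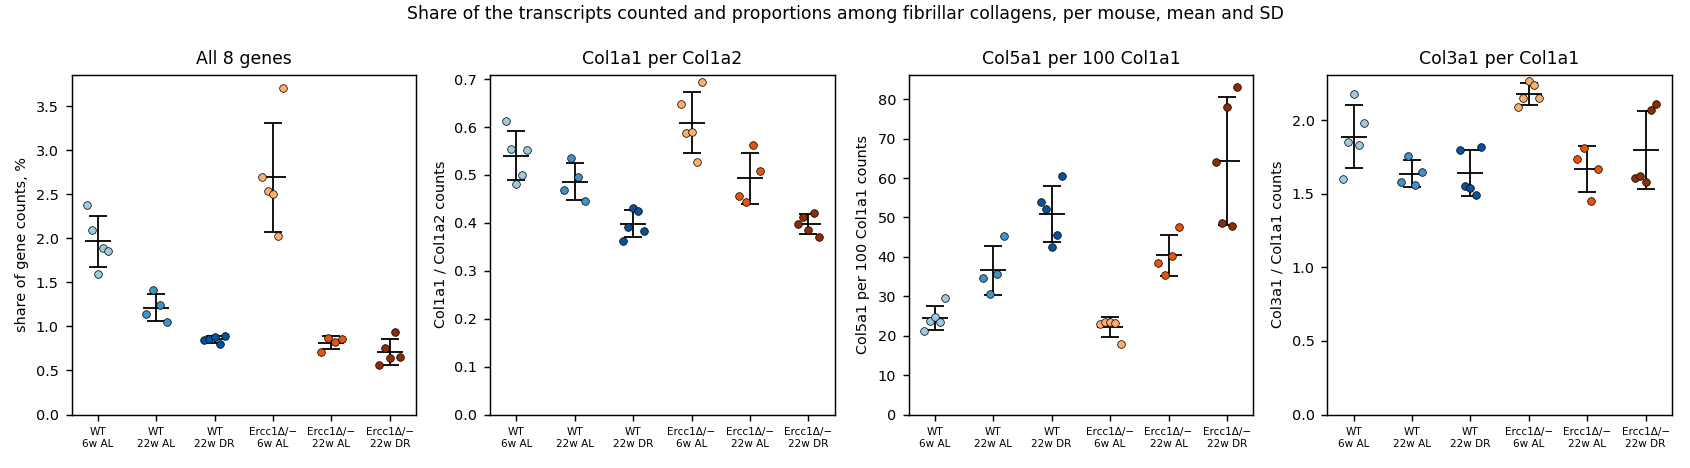
Share of gene counts on the 8 genes (left, percent) and count ratios between members (y axes, linear from 0) in the 6 groups (x axes), with 1 point per mouse, the mean as a tick and the SD as bars. The share and the Col1a1 to Col1a2 ratio are highest at 6 weeks and lowest on DR (0.398 in both genotypes), while Col5a1 per 100 Col1a1 counts is highest on DR (50.9 and 64.3).

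Across the 28 samples the members fell into a tight and a loose part. Col1a1 correlated with Col1a2 and with Col3a1 at Pearson's r = 0.99 on log2 CPM, with Col5a2 at 0.91 and with Col5a1 at 0.86, but with Col5a3 at 0.28 and with Col27a1 at -0.09. After group means were subtracted, so that only mice of the same group were compared, Col1a1 and Col1a2 still stood at 0.94 and Col1a1 and Col3a1 at 0.88, while Col1a1 and Col5a1 dropped to 0.62. The samples share depth and tissue composition, and no p is given. Outside the members, the genes closest to their mean pattern by Pearson's r over the 28 samples were C1qtnf6 and Eln, the gene of elastin (0.92 each), Fbn1, the fibrillin 1 gene, and Col6a1 (0.91 each), Nrep (0.90), Sparc (0.89), Pxdn and Fkbp10 (0.88 each), and Fstl1 and Mfap5 (0.87 each). Within groups the closest were Col6a2, Col6a1 and Loxl1 (0.87 each), Gipc1 (0.84) and Gnb2 (0.82). The choice of measure mattered. By Spearman's rho only 3 of the 10 genes over all samples, Col6a1, Nrep and Pxdn, were again among the closest 10, now led by Col6a2 (0.90), and within groups 3 of the 5, Col6a1, Col6a2 and Loxl1.

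The genes that act on fibrillar collagens were followed on lists, with p adjusted over all tested genes. Of all tested genes 0.235% were called with age in WT mice and 4.69% in Ercc1Δ/− mice. Between genotypes 1.7% were called at 6 weeks, 12% at 22 weeks on AL and 13% on DR. With DR 1.28% were called in WT and 1.64% in Ercc1Δ/− mice, and 0.842% for genotype by age. The counts below stand against these shares, and 1 gene called between genotypes at 22 weeks on a short list is near them. Of the enzymes and chaperones that modify and fold procollagen, 17 of 19 were tested, and 6 fell with age in Ercc1Δ/− mice, led by the collagen chaperone gene Serpinh1 (-0.86 ± 0.11, edgeR adjusted p = 3.1e-05) and Fkbp10 (-0.58 ± 0.13). The median of the 17 was -0.20. In WT mice edgeR called none of them with age and DESeq2 1, with 3 at an unadjusted p under 0.05. Serpinh1 averaged 3629 normalized counts in young and 1994 in old Ercc1Δ/− mice, and 3877 in old AL-fed WT mice, and was the 1 gene of this list called for the genotype by age interaction (-0.95 ± 0.16). At 22 weeks on AL, 5 were lower in Ercc1Δ/− mice, among them Serpinh1 (-0.93 ± 0.12) and the prolyl hydroxylase gene P4ha1 (-0.99 ± 0.17), and on DR 8 were lower, led by P4ha2 (-0.66 ± 0.11). With DR edgeR and DESeq2 called none in either genotype, with 4 (WT) and 6 (Ercc1Δ/−) at an unadjusted p under 0.05.

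Of the proteins that cut off the propeptides, 6 of 9 were tested. Adamts2, the N-propeptidase, fell with age in Ercc1Δ/− mice (-0.82 ± 0.11), as did Bmp1, the C-propeptidase (-0.48 ± 0.10), and Pcolce2. Pcolce, an enhancer of the C-propeptidase, was the 1 gene of the list called with DR, and it fell in both genotypes (-0.41 ± 0.10 in WT and -0.58 ± 0.11 in Ercc1Δ/− mice). All 5 lysyl oxidases were tested. Lox fell with age in WT mice (-0.87 ± 0.15), and Loxl2 (-1.44 ± 0.12), Loxl1 (-0.68 ± 0.13) and Lox in Ercc1Δ/− mice, while Loxl1 fell with DR in Ercc1Δ/− mice (-0.49 ± 0.11). Of 10 genes of procollagen export, Sec24d was the 1 called at 22 weeks on AL, lower in Ercc1Δ/− mice (-0.41 ± 0.11), and the 3 called on DR, all lower, were led by the transcription factor genes Creb3l2 (-0.40 ± 0.08) and Creb3l1 (-0.58 ± 0.13).

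Among 14 tested regulators of fibril assembly, Sparc, a collagen-binding matricellular protein, fell from 23592 to 11149 normalized counts with age in WT mice (-1.10 ± 0.12) and from 30785 to 9474 in Ercc1Δ/− mice (-1.67 ± 0.12). Tenascin X (Tnxb) fell with age in Ercc1Δ/− mice (-0.60 ± 0.12) and with DR in WT mice (-0.46 ± 0.12), and was called for the genotype by age interaction (-0.90 ± 0.17). Fibromodulin (Fmod) was lower in Ercc1Δ/− mice at 22 weeks, with 103 against 484 normalized counts on AL (-2.10 ± 0.34) and 115 against 360 on DR (-1.62 ± 0.29). Biglycan (Bgn) fell with DR in Ercc1Δ/− mice (-0.35 ± 0.09). Of the 5 tested fibril-associated collagens, Col14a1 and Col16a1 fell with age in Ercc1Δ/− mice (-0.88 ± 0.12 and -0.54 ± 0.13), and Col14a1 was called for the interaction (-0.75 ± 0.16).

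Of 13 tested network and beaded-filament collagens, Col4a5 (-0.71 ± 0.09) and Col4a2 (-0.52 ± 0.11) fell with age in WT mice. In Ercc1Δ/− mice 8 fell with age, led by Col4a5 (-1.41 ± 0.10) and Col6a2 (-1.33 ± 0.13), where 2.57% of all tested genes were called lower. Between genotypes at 22 weeks on AL, Col8a1, a short-chain collagen of the vessel wall, was higher in Ercc1Δ/− mice. It had 238 normalized counts there against 88 in WT mice (1.42 ± 0.17), and it fell with DR in Ercc1Δ/− mice to 88.3 (-1.48 ± 0.16). On this list 5 genes, Col6a2, Col4a5, Col6a3, Col6a6 and Col6a1, were called for the interaction in the direction of Col1a2 and Col3a1.

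Genes of fibrillar collagen breakdown and uptake did not move as 1 block. Of 11 tested, Mmp3, a metalloprotease, rose with age in Ercc1Δ/− mice from 22 to 160 normalized counts (2.85 ± 0.21), and Timp1, an inhibitor of such proteases, rose as well, whereas Ctsk (cathepsin K, -0.71 ± 0.11), Fap and Mmp2 fell. In WT mice Ctsk was the 1 called with age (-0.66 ± 0.11). With DR in Ercc1Δ/− mice 4 fell, led by Timp1 (-1.41 ± 0.21) and Mmp3 (-1.36 ± 0.22), in the comparison where no fibrillar collagen was called. There 0.988% of all tested genes were called lower. Of the 16 regulators of collagen genes, Tgfb2 was the 1 called with age in Ercc1Δ/− mice (-0.58 ± 0.13), Ccn2 was lower in Ercc1Δ/− mice at 6 weeks (-0.88 ± 0.21), and Tgfbr2 fell with DR in WT mice (-0.36 ± 0.09). Of 6 tested collagen receptors, Itga10 was higher at 22 weeks on AL in Ercc1Δ/− mice (0.54 ± 0.17), and Ddr1, Itgb1 and Itga1 were lower on DR. Between genotypes at this age 12% of all tested genes were called on AL and 13% on DR. Cell division genes, 7 of 16 tested, included Top2a and Mki67, higher in Ercc1Δ/− mice at 6 weeks (1.78 ± 0.36 and 2.34 ± 0.48) and at 22 weeks on DR (2.29 ± 0.49 and 2.47 ± 0.59). At 22 weeks on AL, where 4 members were lower in these mice, Top2a (1.71 ± 0.40) and Mcm5 (1.00 ± 0.24) were higher, and Mcm5 fell with DR in Ercc1Δ/− mice (-0.92 ± 0.23).

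**Figure D4:**
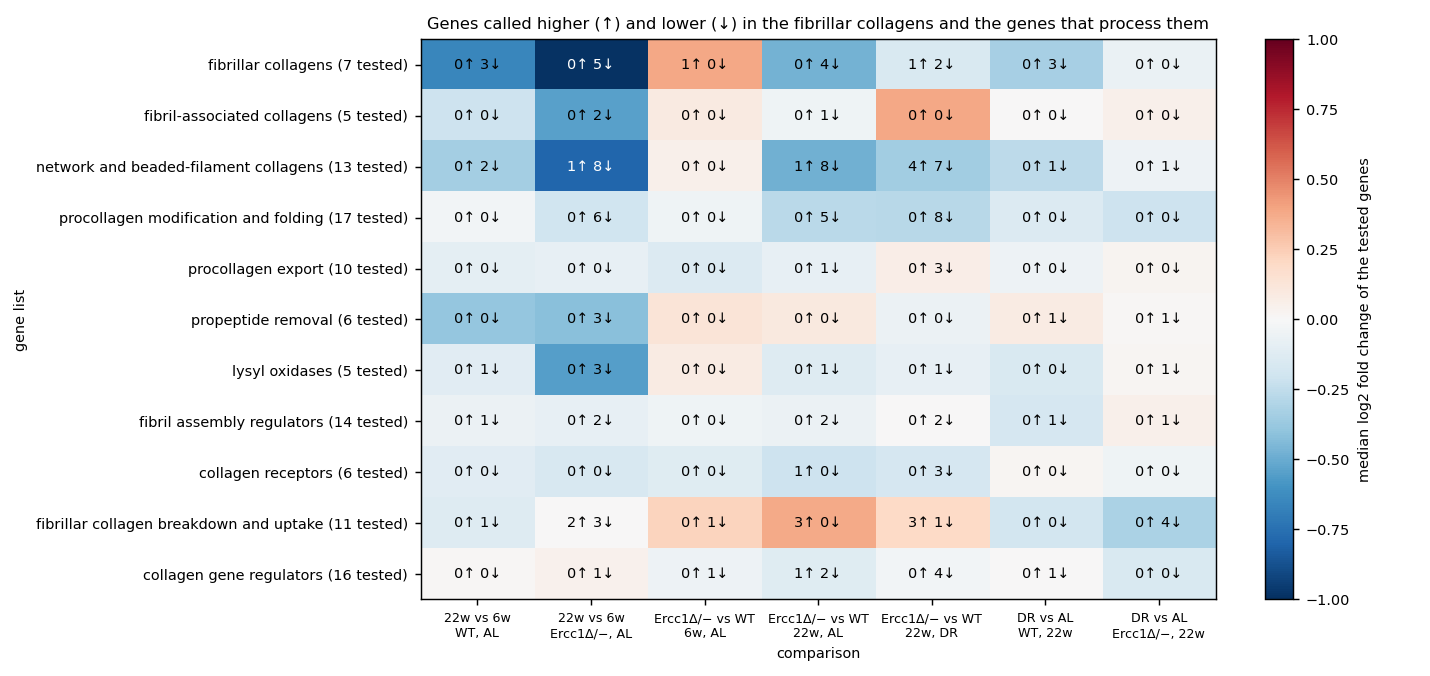
Genes called higher and lower (numbers with arrows) on 11 lists (y axis) in 7 comparisons (x axis), with colour for the median log2 fold change of the tested genes of each list. The fibrillar collagens have their lowest median, -0.99, with age in Ercc1Δ/− mice, where the network and beaded-filament collagens also have 8 genes called lower.

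Markers of cell types moved with several of these comparisons. The fibroblast markers summed to a median of 10518 normalized counts (range 9222 to 11062) in young WT mice, 9509 (8069 to 10313) at 22 weeks on AL and 7783 (7144 to 9141) on DR, and to 11398, 9009 and 8375 in Ercc1Δ/− mice. Their median log2 fold change with age was -0.11 in WT and -0.01 in Ercc1Δ/− mice, where Serpinf1 and Pi16 fell and Ly6a rose. The smooth muscle markers summed to medians of 124894, 131763 and 128111 in the WT groups and 96787, 81353 and 90422 in the Ercc1Δ/− groups, and 6 of the 8 were lower in Ercc1Δ/− mice at 22 weeks on AL. With age in Ercc1Δ/− mice the 1 called, Cnn1, fell. The macrophage markers summed to a median of 2764 (1970 to 3625) in AL-fed Ercc1Δ/− mice of 22 weeks against 926 (876 to 1291) in WT mice, with 7 of 8 called higher. At 6 weeks their median was already higher, 1464 (863 to 2184) in Ercc1Δ/− against 727 (705 to 839) in WT mice. Of all tested genes 12% were called between genotypes at 22 weeks on AL, 6.16% lower and 5.88% higher. Cartilage markers summed to medians of 388 to 698 in every group, of which 4 of 8 were tested. Fat cell markers summed to medians of 2496 to 7471 and cardiac muscle markers to 311 to 1240, and blood cell markers ran from 48.2 to 5724 over the samples. The part of these cell types in the collagen results was not tested.

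**Figure D5:**
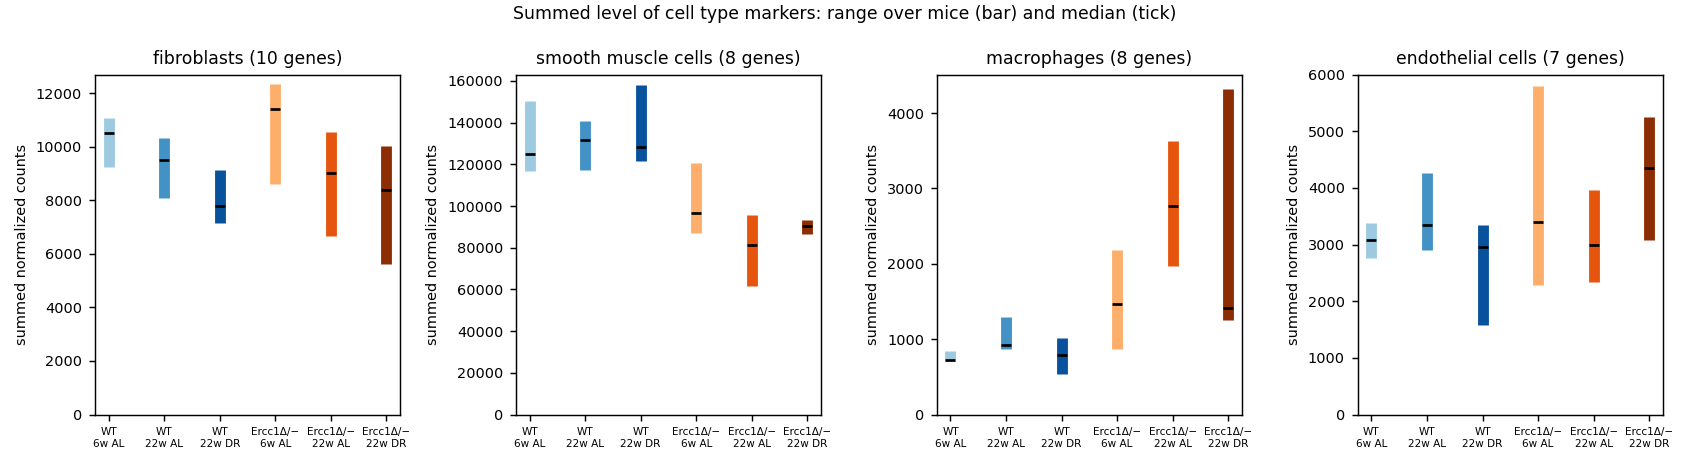
Summed normalized counts (y axis, linear from 0) of the markers of fibroblasts, smooth muscle cells, macrophages and endothelial cells in the 6 groups (x axis), as the range over mice (bar) and the median (tick). The fibroblast sums overlap between ages on AL, whereas those of WT mice on DR (up to 9141) lie below those of WT mice of 6 weeks (from 9222). The smooth muscle sums are lower in Ercc1Δ/− mice at 22 weeks (81353 against 131763 on AL) and the macrophage sums are higher (2764 against 926). The medians differ in the same directions at 6 weeks (96787 against 124894 and 1464 against 727), where the smooth muscle ranges overlap.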

How the data were processed

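RNA of the aortic arch was sequenced as paired-end reads with unique molecular identifiers (UMIs). The authors trimmed the reads with fastp, aligned them with STAR 2.7.10a to GRCm39 (Ensembl annotation), removed duplicates with UMI-tools 1.1.2 and counted reads over whole gene bodies with HTSeq 2.0.2. The authors deposited these as raw counts, whole numbers that are not normalized. The 5 lines of reads not assigned to genes (12.6% to 18.7% of the reads counted) were kept out. Totals on genes ran from 921167 to 9616382 per sample (median 3256708), and the spread between mice adds to counting error.

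The tests used R 4.3.3 and edgeR 4.0.16 (quasi-likelihood F test, robust, TMM factors 0.935 to 1.07) with group and sex in the model, over the 18 AL-fed samples for age and genotype, the 18 samples of 22 weeks for diet and genotype on DR, and all 28 for DR against 6 weeks. Genes needed more than 10 counts in more than 10 samples. Calls needed an adjusted p not above 0.05 together with a change of 1.2-fold (0.263 in log2), interactions the p alone. Intervals are 95% intervals of the fit. Correlations used log2 CPM with a prior count of 2. The procedure was checked on simulated data with changes larger than those called in members between genotypes or diets. That check does not show how well smaller changes are recovered. Gene positions are from a GENCODE annotation of GRCm39 and 56017 of 56748 identifiers had a symbol.

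The rule for named genes took the members in every comparison. From each pathway list the 2 called genes with the smallest p per comparison could be named, further genes being named, after their values were seen, only to spell out a count, and the 10 genes over all samples and 5 within groups closest to the members' mean pattern. The members and lists were chosen with earlier results of these data known, so no list is independent evidence. Alternatives were DESeq2 1.42.0, RLE factors, library size alone, no filter, sample 003 added, no sex term, other sets of groups, thinning to 921167 counts, and each sample left out. The earlier dispersion method of edgeR and levels per canonical transcript were added after seeing the data. Sequences are from RefSeq.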

Additional observations from a re-analysis of the deposited data

Results flagged for a closer look

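The change with age differed between the genotypes for Col3a1 and Col1a2, by the interaction test in edgeR. For Col3a1 the difference of log2 changes was -1.28 (standard error 0.24), with log2 fold changes of Col3a1 with age of -0.97 in WT and -2.25 in Ercc1Δ/− mice, and every 22-week mouse lay below every 6-week mouse in both genotypes. For Col1a2 it was -0.88 (standard error 0.18), again without overlap of the ages in either genotype.

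Col11a1 had 1 sample apart from its group among the 48 groups of values checked. Replicate 008 of the young Ercc1Δ/− mice held 8.38 normalized counts of Col11a1, where the other 4 held 4.5 to 4.88, so that the gap was 0.903 of the range against a limit of 0.71. Chance alone flags about 1 in 20 groups, and the sample held 9 raw counts of this gene.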

How the results depend on the processing

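Of the 31 member values called, 19 kept their call under every alternative and with every sample left out, and of the recomputed values of called genes 528 kept the call, 77 lost it and none changed sign. With DESeq2 the number of members called was 2 for genotype at 6 weeks and 4 for genotype by age. It was 2 for genotype at 6 weeks with library size alone or without the sex term. With sample 003 added it was 2 for genotype at 22 weeks on AL and 0 for diet in WT mice. Diet in WT mice gave 1 without the sex term, 1 after thinning and 0 with all 6 groups, diet in Ercc1Δ/− mice 1 after thinning, and genotype on DR 1 with all 6 groups. The cause was not tested. Leaving out 1 sample gave 1 to 4 for age in WT mice, 5 for age in Ercc1Δ/− mice, 1 to 2 for genotype at 6 weeks, 1 to 4 at 22 weeks on AL and on DR, 1 to 4 for genotype by age, 1 to 3 for diet in WT mice, 0 to 2 for diet in Ercc1Δ/− mice, 0 for genotype by diet, and 4 to 5 (WT) and 5 (Ercc1Δ/−) for DR against 6 weeks.

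Values near 0 and never called changed sign. For Col5a3, genotype by age was -0.19 with DESeq2, -0.00 without the sex term and -0.69 after thinning, and -0.42 to 0.31 with 1 sample left out, while diet in Ercc1Δ/− mice ran from -0.31 to 0.21. For Col5a2, diet in WT mice was 0.06 and genotype by diet -0.00 with sample 003 added, and leaving out 1 sample gave -0.07 to -0.00 for diet in WT mice (0.00 without replicate 012 or 018) and -0.02 to 0.13 in Ercc1Δ/− mice. For Col27a1, diet in WT mice was -0.01 with library size alone and with no filter and -0.07 to 0.07 with 1 sample left out, genotype at 22 weeks on AL ran from -0.01 to 0.22, and DR against 6 weeks in Ercc1Δ/− mice from -0.15 to 0.07. No paired analysis was possible because each mouse gave 1 sample and no number is shared between groups. Counts of Col11a1 and Col5a3 were low, with 81 and 2074 in all 28 samples together. The part of sequencing depth in this was not tested. Intervals of counting error alone would be too narrow, since mice differ.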
